A study of Mus musculus with 4 samples.

Results

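The genes described are 10 receptor tyrosine kinases that respond to growth factors or, for *Ddr1*, to collagen: *Egfr*, *Erbb2*, *Erbb3*, *Met*, *Pdgfra*, *Pdgfrb*, *Fgfr1*, *Axl*, *Igf1r* and *Ddr1*. They were taken by name from the 55450 genes of the mouse annotation, of which 10553 had a transcript in whole tumor. All 10 had at least 1 transcript in both whole tumor libraries, and 2 of the 10 had one in the tumor Treg values. The RNAseq came from female Balb/c mice that express EGFP under the *Foxp3* promoter and were 8 weeks old when 4T1 cells, a mouse mammary carcinoma line, were injected into the mammary fat pad. The mice received Control SMO, an oligomer without a target, or LFPRLR SMO, a splice modulating oligomer against the long form of the prolactin receptor, for 12 days. Whole primary tumors gave 1 library per treatment, and tumor Tregs, sorted by EGFP from other mice, gave 1 library per treatment as well. Each library was RNA pooled from 6 mice and depleted of rRNA. A ratio therefore compares 1 library with 1 library, no spread between mice can be computed, and no p-value or SD is given. The whole tumor RNA mixes carcinoma cells, which are the progeny of 1 cell line, with the host's stromal and immune cells, so fewer cells of a type and less RNA per cell cannot be told apart.

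Receptor tyrosine kinases are membrane proteins with an extracellular part that binds a ligand and an intracellular kinase. Binding brings receptors together, the kinases phosphorylate each other's tails, and adaptor proteins that dock there pass the signal to the RAS and MAP kinase cascade, to PI3 kinase and AKT, and to phospholipase C. In mammary tissue, EGFR, ERBB2, ERBB3, MET and DDR1 are known mainly from epithelial cells, PDGFRA and PDGFRB from fibroblasts and pericytes, FGFR1 and IGF1R from many cell types, and AXL from mesenchymal cells and macrophages.

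The whole tumor files list transcripts assembled from the reads, each with an FPKM (fragments per kilobase of transcript, scaled to the mapped fragments) and the authors' lower and upper 95% bounds, which describe the estimate within a library and not the spread between mice. Because a receptor mRNA is often assembled in pieces, each gene has 2 levels here. The summed FPKM adds the FPKM of all its transcripts, so that a gene in several pieces is counted once per piece. The exon-weighted value takes every transcript with bases on the exons of the gene, those given to another gene or to none included, multiplies its FPKM by those bases and divides by the length of the longest annotated transcript, so that a piece counts only for the part it covers. Of the 10 receptors, only *Erbb2* and *Ddr1* had such an added transcript in whole tumor, 1 each and with LFPRLR SMO only. Exon numbers below follow the longest transcript of GENCODE M21 basic, on GRCm38 (mm10). In whole tumor an FPKM of 1 corresponded to a read depth of 1.88 with Control SMO against 1.75 with LFPRLR SMO, and the numbers of reads are not given in the sources used here. *Prlr*, the gene targeted by LFPRLR SMO, had no transcript in any library, so its knockdown cannot be checked here. The paper reports long form *Prlr* expression from RNAseq of sorted Tregs with Control SMO and none with LFPRLR SMO. The values used here do not hold that expression. The tumor Treg values did not differ in any value between the 2 treatment labels, were counted as 1 set, and allow no comparison of treatments.

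*Axl* was by far the most abundant of the 10 in whole tumor. By the mean exon-weighted value of both libraries the order was *Axl*, *Igf1r*, *Met*, *Pdgfra*, *Pdgfrb*, *Fgfr1*, *Erbb2*, *Ddr1*, *Erbb3* and *Egfr*, from 14.7 for *Axl* and 4.10 for *Igf1r* down to 0.595 for *Egfr*. With no replicate libraries, it cannot be said which neighbors in this order differ. Among 58 receptor tyrosine kinases of the mouse, *Axl* ranked 1, *Igf1r* 9, *Met* 11 and *Egfr* 25, and 23 of the 58 had an exon-weighted value of 0 in both libraries. The mean read depth over the longest transcript ran from 0.975 for *Egfr* to 32.9 for *Axl* with Control SMO, and reached 21.1 for *Axl* with LFPRLR SMO. *Egfr* had the lowest mean depth per base in both libraries and *Axl* the highest.

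**Figure D1:**
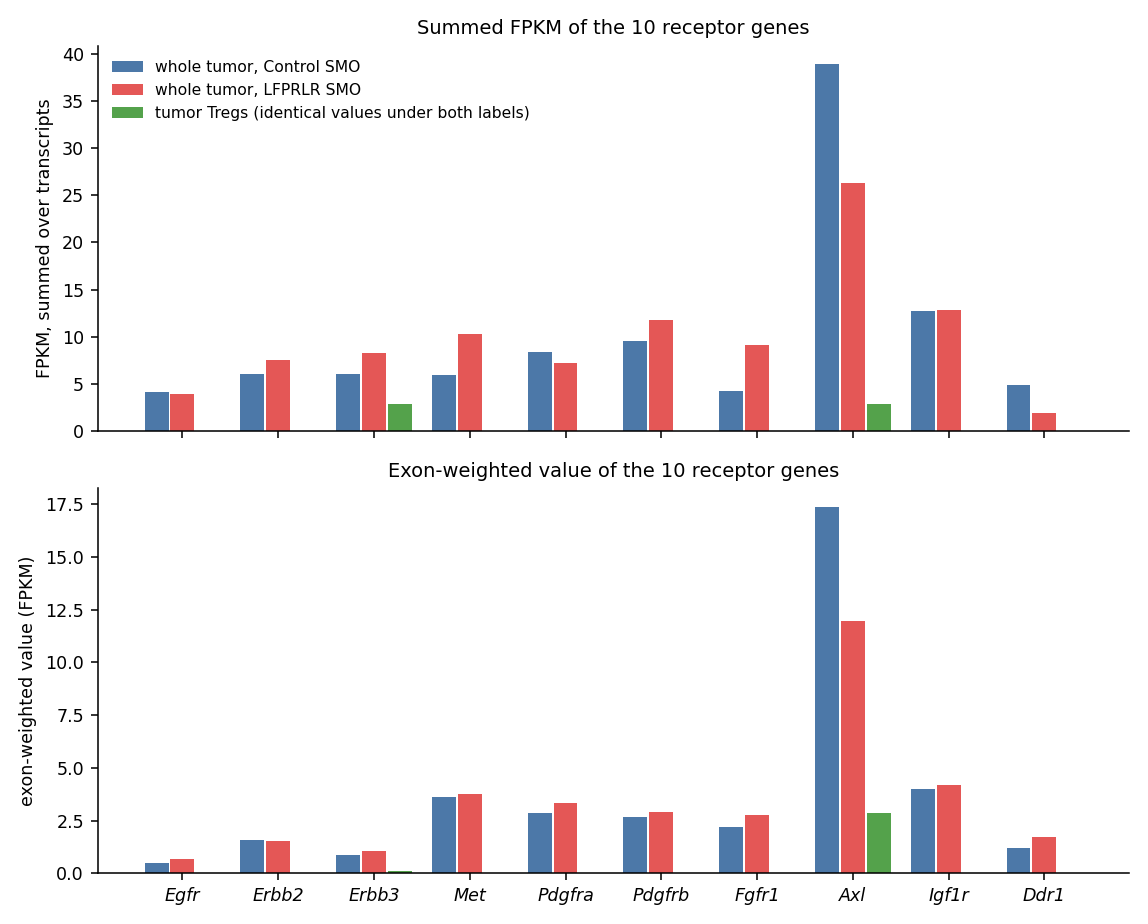
Level of each receptor gene (horizontal axis) as summed FPKM (upper panel) and as exon-weighted value (lower panel, FPKM), for whole tumor with Control SMO (blue) and LFPRLR SMO (red) and for tumor Tregs (green), with 1 library per bar and no error available. *Axl* stands above the other receptors in whole tumor, at 17.4 and 12.0 as exon-weighted value, and tumor Tregs have bars only for *Axl* and *Erbb3*.

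None of the 10 receptors differed by a factor of 2 on the exon-weighted scale. Ratios are given as log2((LFPRLR SMO + 0.1)/(Control SMO + 0.1)), which understates changes of low values, and were computed for the 10410 genes that reached an FPKM of 1 in at least 1 whole tumor library. By exon-weighted value 0 receptors were higher with LFPRLR SMO by a factor of 2 and 0 were lower, against 9.88% and 11.7% of all genes. Among genes with a value in both libraries, as all 10 receptors have, the shares were only 2.21% and 5.89%. By summed FPKM 1 receptor was higher, *Fgfr1*, and 1 was lower, *Ddr1*, against 17.6% and 17.5% of all genes. Among genes with a summed FPKM in both libraries the shares were 10.7% and 11.3%, close to those of the receptors. Measured only over the exon bases that both libraries cover, again 0 were higher and 0 lower, against 1.79% and 3.73%. The median ratio of the 10 was 0.16 by summed FPKM, 0.17 by exon-weighted value and 0.09 over bases covered in both, while the medians of all genes were -0.10, -0.16 and -0.12. Above 0 were 6 receptors by summed FPKM and 8 by each of the other measures.

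**Figure D2:**
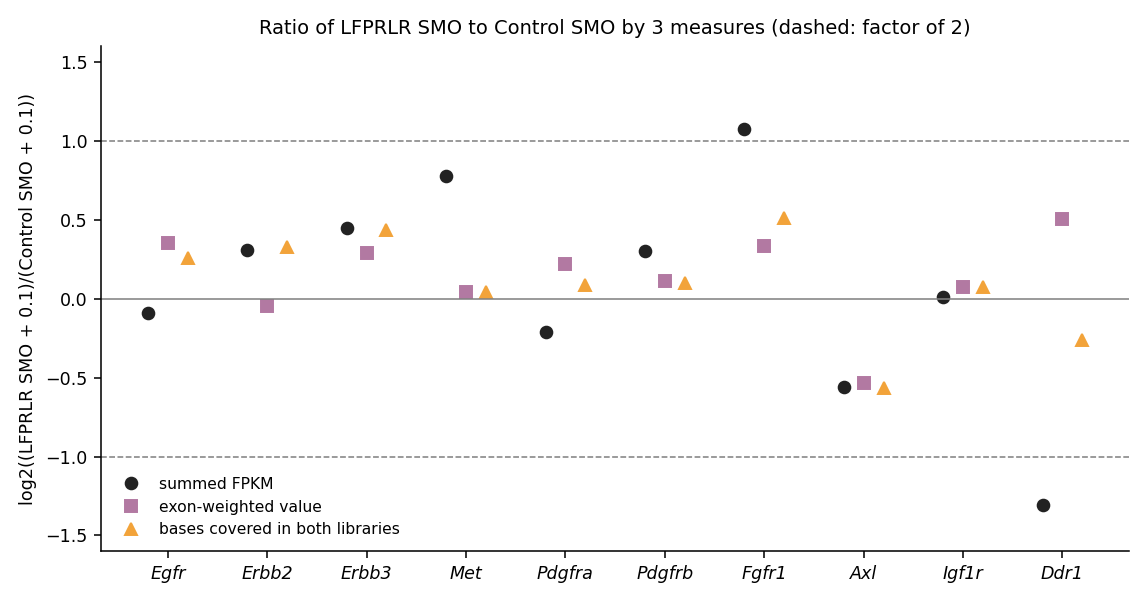
Log2 ratio of LFPRLR SMO to Control SMO (vertical axis) for each receptor gene (horizontal axis) by summed FPKM (black circles), exon-weighted value (purple squares) and bases covered in both libraries (orange triangles), with dashed lines at a factor of 2. Black circles pass the dashed lines for *Fgfr1*, at 1.07, and *Ddr1*, at -1.31, where no other symbol does, and for *Axl* all 3 symbols lie between -0.56 and -0.54.

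The authors' bounds were compared as well. All 58 whole tumor transcripts of the 10 genes had an FPKM within their own bounds. Pairing transcripts of the same gene that share at least 50% of the bases of the shorter one gave 40 pairs between the libraries, and the bounds overlapped in 29 of them. *Axl*, the receptor with the highest mean depth, was the only one without an overlapping pair, with 0 of 3. Its Control SMO 5′ transcript at 17.3 entered more than 1 of these, also the pair with the less abundant LFPRLR SMO transcript at 2.19. Pairs that reuse a transcript are not independent. No share over all genes stands beside these counts, so *Axl* is not shown by them to stand out from other genes of such depth. For *Egfr*, *Erbb3*, *Igf1r* and *Ddr1* every pair overlapped. The other 8 pairs without overlap belonged to *Erbb2*, *Met*, *Pdgfra*, *Pdgfrb* and *Fgfr1*, which each also had overlapping pairs.

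AXL is the receptor of GAS6, a vitamin K dependent ligand that bridges to phosphatidylserine on dying cells. *Axl* (chr7:25757273-25788705, minus strand) had a summed FPKM of 38.9 with Control SMO against 26.3 with LFPRLR SMO, a log2 ratio of -0.56. Its exon-weighted values were 17.4 and 12.0, a log2 ratio of -0.54, and over the 3761 bases covered in both libraries its mean FPKM was 19.6 and 13.3. The value with LFPRLR SMO was thus lower by each measure, within a factor of 2. In both libraries the mRNA was assembled as a 5′ part from exon 2 and a 3′ piece of exons 16 to 20. The 3′ piece was at 21.6 with Control SMO (bounds 17.7 to 22.5) and at 16.5 with LFPRLR SMO (bounds 13.5 to 17.3). The 5′ part was a single transcript of exons 2 to 15 at 17.3 with Control SMO (bounds 15.3 to 19.3) and, with LFPRLR SMO, 2 transcripts, of exons 2 to 15 at 7.62 and of exons 2 to 12 at 2.19. Bounds did not overlap between the libraries for the 3′ piece or for either 5′ transcript, again without a share over all genes beside this. All 12 marker genes of monocytes and macrophages had lower exon-weighted values with LFPRLR SMO too, none was at 0, and their summed exon-weighted value was 484 with Control SMO against 311 with LFPRLR SMO, with a median log2 ratio of -0.61. Their part in the lower *Axl* was not tested.

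The 5′ transcripts of *Axl* differed in exon 8, which the less abundant LFPRLR SMO transcript lacked. Exon 8 (chr7:25774084-25774223) has 140 coding bases, which is not a multiple of 3, so joining exon 7 to exon 9 changes the reading frame. The join is absent from the annotation, although both of its sites are annotated. The form with the exon had an FPKM of 17.3 with Control SMO against 7.62 with LFPRLR SMO, and the transcript without it was at 2.19 with LFPRLR SMO (bounds 1.36 to 3.01), 22.3% of the sum. Exon 10 (chr7:25773099-25773125), a cassette of 27 bases by which annotated *Axl* transcripts differ, was present in every transcript that spans it, in both whole tumor libraries and in tumor Tregs. The sequences of exon 8, of the join without it and of exon 10 are shown because they tell these forms apart, from the GENCODE M21 transcripts (GRCm38), 5′ to 3′ on the coding strand, with exon bases or the 4 bases on each side of the join in capitals and neighboring exon bases in lower case.
*Axl* with exon 8: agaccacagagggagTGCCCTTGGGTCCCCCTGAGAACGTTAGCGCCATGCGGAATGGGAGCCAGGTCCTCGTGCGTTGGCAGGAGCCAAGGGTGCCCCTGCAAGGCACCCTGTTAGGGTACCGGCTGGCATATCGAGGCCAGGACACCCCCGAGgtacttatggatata
*Axl* without exon 8: agaccacagagGGAGGTACttatggatata
*Axl* with exon 10: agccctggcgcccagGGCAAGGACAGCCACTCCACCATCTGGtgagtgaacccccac

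MET is the receptor of hepatocyte growth factor. *Met* (chr6:17463800-17573980, plus strand) had a summed FPKM of 5.93 with Control SMO against 10.2 with LFPRLR SMO, a log2 ratio of 0.78. Its exon-weighted values were nearly equal, 3.64 and 3.75, and over the 6626 bases covered in both libraries the mean FPKM was 3.71 and 3.83. The larger sum with LFPRLR SMO went with a larger number of pieces, since 2 transcripts with Control SMO but 4 with LFPRLR SMO covered the same coding bases, 100% in each library. In whole tumor, *Met* and *Igf1r* were the only receptors with all introns found in at least 1 library, and for *Met* all 21 were found in both.

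The libraries differed in exon 15 of *Met* (chr6:17549032-17549172), which is the counterpart of human MET exon 14, the exon of the juxtamembrane segment that holds the docking tyrosine of the ubiquitin ligase CBL. With Control SMO the transcript that crosses the exon included it at an FPKM of 3.04, and the other, at 2.89, ended inside it. With LFPRLR SMO a transcript with the exon was at 3.12 (bounds 2.50 to 3.76) and a transcript without it, spanning exons 1 to 19, was at 1.31 (bounds 0.888 to 1.73), 29.5% of the sum. The exon has 141 bases, a multiple of 3, so leaving it out keeps the reading frame. The join of exon 14 to exon 16 is not in the basic annotation and is present in the full annotation. Joins of annotated sites across an exon that the basic annotation lacks were found in 2 of 25 spliced receptor transcripts with LFPRLR SMO, those of *Met* and *Axl*, and in 0 of 23 with Control SMO, against 2.02% and 2.43% of all spliced transcripts. With 1 library per treatment and these few transcripts, a difference between treatments was not tested. The exon and the join are shown in the same way as above.
*Met* with exon 15: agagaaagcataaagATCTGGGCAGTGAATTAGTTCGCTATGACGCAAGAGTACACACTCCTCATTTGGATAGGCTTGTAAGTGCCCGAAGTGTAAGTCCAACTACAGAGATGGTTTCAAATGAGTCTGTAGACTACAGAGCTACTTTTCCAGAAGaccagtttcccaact
*Met* without exon 15: agagaaagcatAAAGACCAgtttcccaact

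The ErbB receptors EGFR, ERBB2 and ERBB3 form dimers with each other, ERBB2 having no known ligand and ERBB3 a weak kinase. *Egfr* (chr11:16752203-16918158, plus strand) had a summed FPKM of 4.17 with Control SMO against 3.91 with LFPRLR SMO, and exon-weighted values of 0.511 and 0.679. The log2 ratio was -0.09 by the sum and 0.35 by the exon-weighted value, so its direction depended on the measure. *Egfr* was the least completely assembled receptor by annotated exon bases, with 37.0% covered with Control SMO against 36.0% with LFPRLR SMO, and exons 14 to 25 had no transcript in either library. At a mean depth of about 1 read a missing exon is not shown to be absent from the mRNA.

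*Erbb2* (chr11:98412470-98437716, plus strand) was at a summed FPKM of 6.08 and 7.55, a log2 ratio of 0.31, and at exon-weighted values of 1.57 and 1.52, a log2 ratio of -0.05. Without 266 exon bases of a transcript at an FPKM of 2.80 that was given to no gene, the LFPRLR SMO value is 1.37, a log2 ratio of -0.18. Its assembly was less complete with LFPRLR SMO, with 18 of 26 introns found with Control SMO against 13 with LFPRLR SMO, and 75.7% and 59.7% of the coding bases covered. Over the 2626 bases covered in both libraries the mean FPKM was 1.94 and 2.45, a log2 ratio of 0.32. A Control SMO transcript at 0.324 retained introns 23 and 24, and whether it comes from unspliced RNA was not tested.

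*Erbb3* (chr10:128567523-128589652, minus strand) was at a summed FPKM of 6.08 and 8.31, a log2 ratio of 0.44. The exon-weighted values were 0.847 and 1.06, a log2 ratio of 0.29, and the ratio over the 1294 bases covered in both was 0.44. The value with LFPRLR SMO was higher by all 3 measures, and the bounds of both of its pairs of transcripts overlapped. Its assembly held 4 of 27 introns with Control SMO against 12 with LFPRLR SMO, and 2 of 3 Control SMO transcripts lay wholly in the last exon, exon 28. The 12 epithelial markers had summed exon-weighted values of 308 with Control SMO against 264 with LFPRLR SMO, 3 of the 11 listed being higher and 8 lower, with *Krt5* at 0 in both. Their part in the ErbB values was not tested.

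PDGFRA and PDGFRB bind platelet-derived growth factors. *Pdgfra* (chr5:75152292-75198215, plus strand) had a summed FPKM of 8.35 with Control SMO against 7.19 with LFPRLR SMO, a log2 ratio of -0.21. Its exon-weighted values were 2.85 and 3.34, a log2 ratio of 0.22, so the direction turned with the measure, and over the 5628 bases covered in both the ratio was 0.08. A piece at an FPKM of 4.80 that holds exons 2 to 5 was listed with Control SMO, and exons 6 to 9 had no transcript there. With LFPRLR SMO a transcript at 3.31 ran from exon 2 to exon 18, and 99.1% of the coding bases were covered, against 81.2% with Control SMO. A LFPRLR SMO transcript at 1.11 retained intron 20, and whether it comes from unspliced RNA was not tested.

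*Pdgfrb* had a summed FPKM of 9.54 and 11.8, a log2 ratio of 0.30, and exon-weighted values of 2.66 and 2.88, a log2 ratio of 0.11. All 3 measures were higher with LFPRLR SMO, the ratio over bases covered in both being 0.10. The transcripts that hold the 5′ end joined exon 1 to exon 3 in both libraries, at an FPKM of 2.54 and 2.99, as in an annotated *Pdgfrb* transcript, and none had exon 2. Fibroblast and pericyte markers had summed exon-weighted values of 253 with Control SMO against 289 with LFPRLR SMO, 7 of the 11 listed being higher and 4 lower, with *Fap* at 0 in both. Their part in the values of *Pdgfra* and *Pdgfrb* was not tested.

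FGFR1 binds fibroblast growth factors, and its forms differ by exons that encode its immunoglobulin-like domains. *Fgfr1* (chr8:25513654-25575718, plus strand) had a summed FPKM of 4.27 with Control SMO against 9.10 with LFPRLR SMO. This log2 ratio of 1.07 was the largest of the 10 upward. The exon-weighted values were 2.17 and 2.76, a log2 ratio of 0.33, and over the 3669 bases covered in both libraries the mean FPKM was 2.63 and 3.79, a log2 ratio of 0.51. The value with LFPRLR SMO was therefore higher by each measure, and past a factor of 2 only where pieces are summed. With Control SMO a transcript of 18 exons at 1.52 (bounds 1.15 to 1.88) held all introns of an annotated transcript, the only complete one among the 28 Control SMO transcripts. With LFPRLR SMO the 4 transcripts were all partial, the most abundant at 3.37 (bounds 2.57 to 4.21) holding exons 10 to 18.

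Exon 3 of *Fgfr1*, which encodes the first of the 3 immunoglobulin-like domains, was present in some transcripts of both libraries and absent from others. With Control SMO a transcript with it was at 1.52 and a transcript without it at 1.90, 55.6% of the sum. With LFPRLR SMO the transcript with it was at 1.25 and those without it summed to 4.49, 78.2% of the sum. The bounds of the single transcripts overlapped between the libraries (0.656 to 1.80 against 1.15 to 1.88 for the transcripts with the exon), and both forms are annotated. The transcripts with the exon used the acceptor site that gives exon 3 a length of 267 bases (chr8:25555508-25555774), a multiple of 3. Exon 8 (chr8:25564340-25564484), the exon of the IIIc form, was crossed in both libraries, and the 151-base alternative exon before it had no covered base in either. A Control SMO transcript at 1.90 left exon 8 at a site that is not annotated. Exon 3 and the join of exon 2 to exon 4 are shown since this choice separates the forms.
*Fgfr1* with exon 3: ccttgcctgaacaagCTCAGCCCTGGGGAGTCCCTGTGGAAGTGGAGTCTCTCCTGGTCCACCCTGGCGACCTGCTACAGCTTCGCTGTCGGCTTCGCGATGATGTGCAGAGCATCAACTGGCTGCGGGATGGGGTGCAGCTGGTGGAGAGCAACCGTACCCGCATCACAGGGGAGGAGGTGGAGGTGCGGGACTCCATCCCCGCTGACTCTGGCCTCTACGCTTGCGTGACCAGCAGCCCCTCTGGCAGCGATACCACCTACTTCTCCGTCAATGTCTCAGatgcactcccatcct
*Fgfr1* without exon 3: ccttgcctgaaCAAGATGCactcccatcct

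IGF1R is the receptor of insulin-like growth factors. *Igf1r* (chr7:67952827-68233668, plus strand) differed least of the 10 by the sum, with a summed FPKM of 12.8 in both libraries and a log2 ratio of 0.01. Its exon-weighted values were 3.99 with Control SMO against 4.20 with LFPRLR SMO, a log2 ratio of 0.07. The LFPRLR SMO library held the only complete transcript among its 30, with all 21 exons at an FPKM of 4.61 (bounds 4.15 to 5.07). With Control SMO the same stretch was assembled as exons 1 to 2 at 5.15 and exons 3 to 21 at 4.49. The bounds of these long transcripts overlapped.

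DDR1 is a receptor of collagens. *Ddr1* (chr17:35681567-35704621, minus strand) had a summed FPKM of 4.90 with Control SMO against 1.92 with LFPRLR SMO, a log2 ratio of -1.31, and it was the only receptor lower by a factor of 2 on that scale. Its exon-weighted values went the other way, 1.19 and 1.73, a log2 ratio of 0.50. The value with LFPRLR SMO includes 180 exon bases of a transcript at an FPKM of 2.15 that was given to no gene, and without it is 1.63, a log2 ratio of 0.42. Over the 1841 bases covered in both libraries the mean FPKM was 2.35 and 1.94, a log2 ratio of -0.26. The Control SMO sum adds 2 pieces, exons 3 to 9 at 1.54 (bounds 0.922 to 2.14) and exons 14 to 19 at 3.36 (bounds 1.61 to 4.08), with no transcript over exons 10 to 13. The LFPRLR SMO value is a single transcript of exons 4 to 19 at 1.92 (bounds 1.45 to 2.39), whose bounds overlap those of both pieces. The direction of *Ddr1* therefore cannot be given from these libraries. The LFPRLR SMO transcript included exon 13 (chr17:35686481-35686591), a cassette of 111 bases in the intracellular juxtamembrane segment that distinguishes the longer from the shorter annotated kinase forms, and with Control SMO it was not covered. It is printed because it tells these forms apart.
*Ddr1* with exon 13: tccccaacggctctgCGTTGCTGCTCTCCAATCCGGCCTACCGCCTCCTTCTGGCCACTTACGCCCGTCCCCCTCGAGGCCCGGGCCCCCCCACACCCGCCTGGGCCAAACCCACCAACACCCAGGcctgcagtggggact

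Partial assembly was the rule for these long mRNAs. Of 28 whole tumor transcripts with Control SMO 27 were partial, and of 30 with LFPRLR SMO 29 were, where partial means that the transcript does not hold all introns of any annotated one. Transcripts were from 725 to 6740 bases long with Control SMO against 629 to 9202 with LFPRLR SMO, and 5 in each library were pieces within the last exon. Of the 220 introns of the 10 genes, 147 were found with Control SMO against 163 with LFPRLR SMO. More introns were found with LFPRLR SMO for 6 receptors, fewer for 2, *Erbb2* and *Fgfr1*, and as many for *Met* and *Axl*. The median share of coding bases covered was 80.4% and 95.8%. Values over all genes do not stand beside these, so a trait of the receptors cannot be told from one of the libraries.

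**Figure D3:**
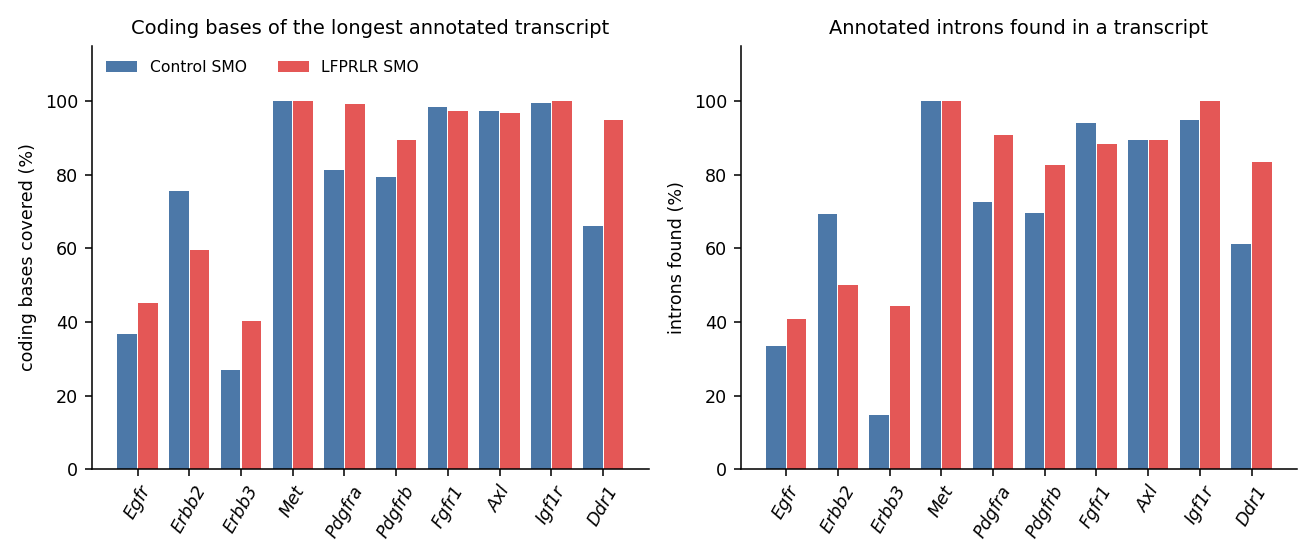
Share of the coding bases covered (left, %) and of the annotated introns found (right, %) for each receptor gene in whole tumor with Control SMO (blue) and LFPRLR SMO (red), over the longest annotated transcript. *Met*, *Igf1r*, *Axl* and *Fgfr1* are nearly complete in both libraries, *Egfr* and *Erbb3* stay under 50%, and *Erbb2* has the largest difference downward, 75.7% of coding bases with Control SMO against 59.7% with LFPRLR SMO.

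Among all genes, the 10 receptors lay close to the line of equal values. Their summed exon-weighted value was 36.8 with Control SMO against 33.9 with LFPRLR SMO, and *Axl* and *Erbb2* were the 2 receptors that were lower. Of the 48 other receptor tyrosine kinases 19 had a transcript with Control SMO against 21 with LFPRLR SMO. Of the 22 past the FPKM minimum, 4 were higher by a factor of 2 by exon-weighted value and 3 were lower, against 9.88% and 11.7% of all genes, and their median log2 ratio was -0.09. The higher ones were *Ror1*, *Ephb3*, *Ret* and *Lmtk3*, each at 0 with Control SMO and at most 0.219 with LFPRLR SMO, and the lower ones were *Mertk*, *Tie1* and *Styk1*. *Mertk*, which like *Axl* encodes a receptor of GAS6, had exon-weighted values of 0.969 and 0.307. Genes past a factor of 2 that the naming rule did not select were chosen for naming after their values were seen. *Fgfr2*, another receptor of fibroblast growth factors, followed *Axl* in level, with exon-weighted values of 12.4 and 10.1. Its annotation spans chr7:130162451-133123350, and what transcripts given to other genes or to none add to its value was not examined. *Ryk*, a Wnt receptor, had a mean of 9.71 over both libraries. *Csf1r*, the receptor of macrophage colony-stimulating factor, had 10.2 and 6.47, a log2 ratio of -0.64, and *Epha1*, an ephrin receptor, 3.25 and 2.35. *Csf1r* is also one of the macrophage markers. The exon-weighted values of the endothelial markers summed to 19.1 with Control SMO against 17.3 with LFPRLR SMO, 2 of the 7 listed being higher and 5 lower, with *Tek* at 0 in both, and 1 of 13 T cell and Treg markers was listed in whole tumor, *Ikzf2*.

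**Figure D4:**
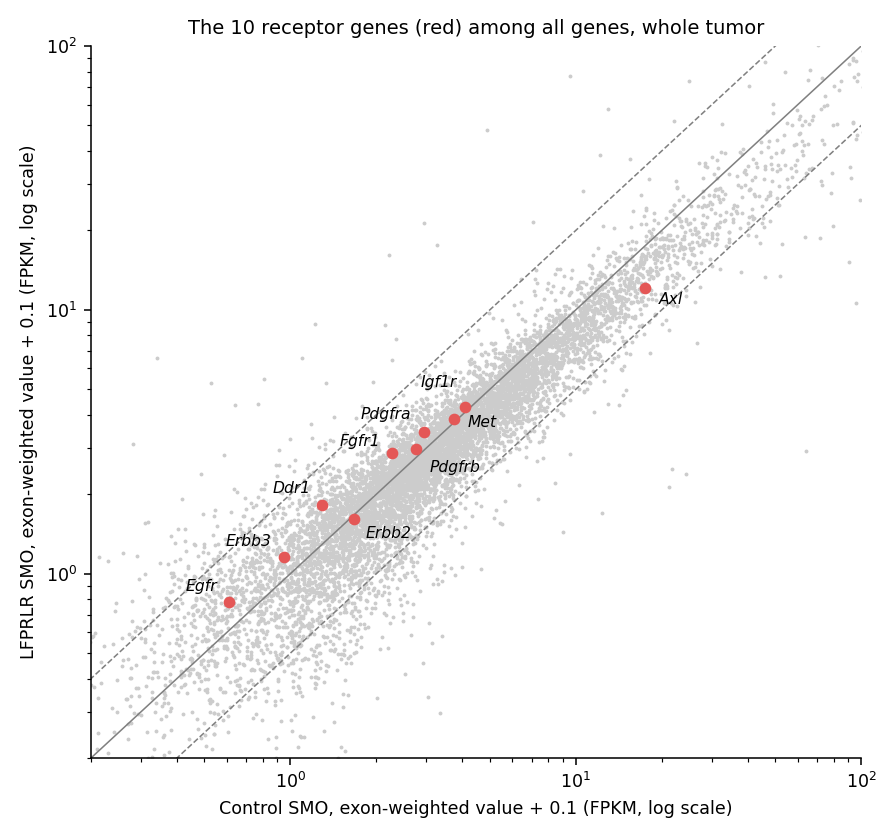
Exon-weighted value plus 0.1 (FPKM, log scales) in whole tumor with Control SMO (horizontal axis) and LFPRLR SMO (vertical axis) for all genes (gray) and the 10 receptor genes (red), with lines for equal values and for a factor of 2; 8701 of 10410 genes lie within the axes. All 10 receptors lie between the dashed lines, *Axl* below the line of equal values and farthest up the scale.

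Ligands of these receptors were listed in part, and their counts past a factor of 2 stand beside the same 9.88% and 11.7% of all genes. Of 11 EGF family ligands, 3 were listed with Control SMO against 4 with LFPRLR SMO, and 1 of the 4 past the minimum was higher by a factor of 2 by exon-weighted value, *Nrg2*, a ligand of ERBB3 and ERBB4, at 0 and 0.648. *Tgfa*, a ligand of EGFR, had exon-weighted values of 5.34 and 3.60, *Areg*, another, 3.49 and 2.54, and *Hbegf*, which binds EGFR and ERBB4, 6.16 and 6.20. These last 3 ligands were within a factor of 2. Of 20 other ligands, 12 were listed in each library, and of the 13 past the minimum 2 were higher by a factor of 2 by exon-weighted value, *Igf1* and *Fgf2*, and 1 was lower, *Fgf1*, the *Fgf* genes being ligands of FGFR1 that were each listed in 1 library. *Gas6*, the ligand of AXL, had 2.66 and 1.46, a log2 ratio of -0.82, in the same direction as *Axl*. *Igf1*, a ligand of IGF1R, had 0.303 and 1.37, a log2 ratio of 1.87, beside the nearly equal values of *Igf1r*. The collagens *Col1a1*, with 53.8 and 79.6, and *Col3a1*, with 49.0 and 60.3, are ligands of DDR1 and also stand among the fibroblast markers. *Col1a2*, in the same lists but not selected by the naming rule, went the other way, with 53.6 and 45.7. The other listed collagens were nearly equal, *Col4a1* at 19.8 and 19.7 and *Col4a2* at 12.3 and 12.4. Of 7 IGF binding proteins 4 were listed, 0 of them past a factor of 2 by exon-weighted value, led by *Igfbp7* at 67.0 and 52.2 and *Igfbp4* at 27.7 and 20.5.

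Genes downstream of the receptors are counted here by a factor of 2 in exon-weighted value, which 9.88% of all genes passed upward and 11.7% downward. Among genes with a value in both libraries the shares were 2.21% and 5.89%. Of 27 adaptors and lipid signaling genes past the minimum 1 was higher and 0 lower. The higher one was *Grb7*, an adaptor of ERBB2, which was listed at 0 with Control SMO and had 1.07 with LFPRLR SMO. A gene at 0 has no listed transcript on its exons and is not shown to be unexpressed. The lowest FPKM with Control SMO, 0.211, is taken over all transcripts and is not a limit of detection for a gene. *Grb2*, the adaptor that links receptors to RAS, had 5.97 and 3.31, *Plcg2*, a phospholipase C found mainly in blood cells, 16.8 and 11.7, and *Akt1*, a kinase downstream of PI3 kinase, 16.1 and 14.6. These last 3 were lower with LFPRLR SMO, each within a factor of 2. In the RAS and MAP kinase core 0 of 16 were higher and 0 lower, and the extremes were *Araf*, a RAF kinase, at 1.16 and 2.35 (log2 ratio 0.95 after adding 0.1) and *Mapk3*, which encodes ERK1, at 10.6 and 6.55. *Rras*, a RAS-related GTPase, had 11.9 and 8.08, and *Rasa1*, a GTPase activator of RAS, 11.3 and 9.81. Of 23 genes of feedback inhibition and receptor turnover 1 was higher, *Lrig3*, and 1 lower, *Cblc*, each listed in 1 library, while 4 lay above 0 and 19 below, and the median log2 ratio was -0.18, against -0.16 for all genes. *Errfi1*, an inhibitor of EGFR, had 19.1 and 13.5, *Spry2*, an inhibitor of RAS signaling, 4.50 and 2.21, just within a factor of 2 after adding 0.1, and *Dusp6*, the ERK phosphatase, 26.4 and 17.9. Of 9 ERK response genes 0 were past a factor of 2, with *Etv4*, an ETS factor, at 2.39 and 4.67, *Fos* at 0.862 and 1.35, *Ccnd1*, which encodes cyclin D1, at 48.3 and 37.9 and *Myc* at 12.6 and 11.4.

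In the tumor Treg values 2 of the 10 receptors had a transcript. *Axl* had a summed FPKM of 2.90 and an exon-weighted value of 2.86, from 2 transcripts that together hold all 19 introns. The more abundant, at 2.06, was complete, and the other, at 0.845, lacked exons 8 and 9, 291 bases in all and a multiple of 3, 29.1% of the sum. It is not the join found in whole tumor, which leaves out exon 8 alone. *Erbb3* had an FPKM of 2.87 from a piece of 224 bases in its last exon, without a strand, and an exon-weighted value of 0.107. The other 8 receptors had no transcript, and of all 58 receptor tyrosine kinases *Csf1r* was the third that had one, at an exon-weighted value of 11.3. Transcripts without a gene symbol were listed there only from an FPKM of 2.64 upward, while those with a symbol were listed down to 0. A receptor without a transcript is not shown to be unexpressed. Defining markers of the labeled cell type were absent: 0 of 13 T cell and Treg markers were listed, *Foxp3* and *Cd4* among those at 0, while all 12 monocyte and macrophage markers were, with a summed exon-weighted value of 401. The *Axl* transcripts are therefore not shown to come from Tregs.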

How the data were processed

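RNAseq libraries of whole tumor and tumor Tregs were analyzed, 4 in all. Per the submitters' processing notes, Cufflinks, Cuffdiff 2.0.2, StringTie 1.2.3 and HISAT2 2.0.4 were used, on mm10. The deposited lists hold transcripts with a score scaled by the authors within each assembled gene, which was not used, and the FPKM, 95% bounds and coverage computed by the authors. Each transcript was given to a gene of the basic GENCODE M21 set (GRCm38) by the largest number of shared introns, at least 1, or else by at least 50% of exon bases; tumor Treg transcripts that carry a symbol kept it. Genes that reached an FPKM of 1 in either whole tumor library were compared on the scale log2(value + 0.1). With 1 pooled library per group no test was possible, and a factor of 2 was used. Sequences were read from the GENCODE M21 transcripts. Assignment and levels were tested on simulated transcripts of 1 form per gene, whole or cut in 2 between exons. Gapped or overlapping pieces, as the receptors have, were not simulated. Whole tumor and tumor Treg values come from different programs and are set side by side only. From each list of other genes, the 2 with the highest mean exon-weighted value and the 2 with the largest ratio among those of at least 1 were named. The receptors and all lists were chosen with earlier results of these data known. Python 3.11.15 was used.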

Additional observations from a re-analysis of the deposited data

How the results depend on the processing

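No paired analysis was possible because each group is 1 pooled library. By exon-weighted value, 0 receptors higher and 0 lower by a factor of 2 held under every alternative run for that value. TPM, coverage and the most abundant transcript only were not among these. A factor of 3, a pseudocount of 1, an FPKM of at least 5 or genes listed in both libraries can only lower such a count. Those settings therefore could not change it. Leaving out the filter could not either, since all 10 receptors pass it. By summed FPKM, the count of 1 higher (*Fgfr1*) became 0 with a pseudocount of 1, with the most abundant transcript only, with coverage in place of FPKM, with a factor of 3 and over bases covered in both libraries, and 10 with TPM. The count of 1 lower (*Ddr1*) became 0 with the most abundant transcript only, with TPM, with a factor of 3 and over bases covered in both libraries. It also became 0 with an FPKM of at least 5, a minimum that *Ddr1* did not reach, so that setting removes the gene. TPM was computed by dividing each FPKM by the sum of all FPKM in its library and multiplying by 1000000. It thus rescales every gene of a library by the same factor. TPM moved the median ratio of the receptors from 0.16 to 3.73 and that of all genes from -0.10 to 3.07. The shares of all genes past a factor of 2 became 91.8% higher and 0.442% lower. Why the sums differ between the libraries was not tested. *Ddr1* turned to 1.96 with TPM and 0.50 by exon-weighted value. TPM aside, *Erbb3*, *Met*, *Pdgfrb*, *Fgfr1* and *Axl* kept their sign under each alternative, *Axl* between -0.66 and -0.38. Bases covered in both libraries, genes listed in both, the full annotation and, for exon-weighted values, transcripts assigned to the gene only were added after seeing the data. Read depth limits *Egfr* and *Erbb3* most.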

Other observations

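Transcripts that were given to no gene lay within the bounds of 4 receptor loci, 24 with Control SMO and 38 with LFPRLR SMO, while all such transcripts numbered 4120 and 12380 in the libraries. *Igf1r* held 21 and 30 of them, each of a single exon and without a strand, at an FPKM of 0.832 to 4.45 with Control SMO and 1.69 to 8.48 with LFPRLR SMO. *Egfr* held 2 and 7. Whether these transcripts come from unspliced RNA was not tested. The first *Igf1r* transcript began 1057 bases before the annotated start with Control SMO and 1701 bases before it with LFPRLR SMO.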
